A study of Mus musculus with 45 samples.

Results

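Control mouse embryos were compared between the morula, when the cells have compacted but are not yet separated into lineages, and the inner cell mass (ICM) of blastocysts labelled embryonic day 4.5 (E4.5), which by the study's text were taken for RNA-seq at the mid-blastocyst stage. The comparison used 4 RNA-seq libraries, 2 of morulae and 2 of E4.5 ICM, chosen by their labels as all libraries of these stages given the DMSO vehicle, out of 18 RNA-seq libraries and 45 samples in the series. All 4 came from embryos with a degron tag (dTAG) on both *Gabpa* alleles (*Gabpa*-dTAG/dTAG), the gene of an ETS-family transcription factor; without the dTAG13 ligand the tagged protein is not degraded. Oocytes from superovulated females of 7 to 8 weeks were fertilized in vitro with sperm of males of 8 to 12 weeks, and the embryos were cultured in KSOM medium. Morulae were sequenced whole, while the ICM was freed of the outer trophectoderm (TE) by immunosurgery, in which antibody and complement kill the outer cells. The E4.5 libraries therefore hold the epiblast (EPI) and primitive endoderm (PrE) of the blastocyst, and the morula libraries hold all cells of the embryo. The study describes the pair of replicates of each stage as independent biological replicates, and the number of embryos in each library is not given in the sources used here. Each stage was its own set of libraries, so stage and library batch cannot be told apart.

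Between these stages the embryo makes its first lineage decisions. Outer cells of the morula begin to express trophectoderm genes such as *Cdx2* and *Gata3* while inner cells keep pluripotency genes, and the inner cells of the blastocyst then divide into EPI, which gives rise to the fetus, and PrE, which lines the yolk sac. FGF4 from EPI precursors acts on FGF receptors to favour PrE, in which GATA6 is followed by SOX17 and GATA4. In the same period the embryo turns from pyruvate to glucose as a main fuel.

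Expected counts summed to 9457933 and 11032812 in the morula libraries and to 20818291 and 19246219 in the ICM libraries. The replicates were not equally close. The biological coefficient of variation is the replicate spread beyond counting noise. It was 0.234 within the morulae, 0.0230 within the ICM and 0.147 as the common value over both stages. The test fitted a spread for each gene, which the stages shared. Of 55385 genes in the files, 15266 had at least 10 counts in 2 of the 4 libraries and were tested with edgeR's quasi-likelihood test. A gene was called higher or lower where the adjusted p-value was below 0.05, the level changed at least 2-fold and either stage had a mean of 1 FPKM (a read density per transcript length and depth) or more, and genes are said to rise or fall only where they met these criteria. By these criteria 38.2% of the genes were called, with 2835 (18.6%) higher in the E4.5 ICM and 2990 (19.6%) lower, and for 12749 genes (83.5%) the libraries of the stages did not overlap in scaled counts. Among protein-coding genes, 2627 were higher and 2100 lower, out of 12870 tested. The change was 10-fold or more for 630 of the higher and 639 of the lower genes, and 382 of the higher genes had at most 3 counts in each morula library.

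Levels are given in TPM, which scales for transcript length and depth, in the order of replicates 1 and 2, and changes as log2 fold changes from the fit, positive where the ICM was higher, with their standard error (SE). The scales differ. Over 10091 genes with a mean TPM of at least 1 in both stages, the log2 ratio of TPM exceeded the fitted log2 fold change by a median of 0.53, so a gene with a rise of less than that in TPM can have a fitted change of 0 or below. The fit scaled the libraries so that the median gene changed little (0.05). Scaling to library totals alone raised the log2 fold changes by a median of 0.27 and gave 3624 genes higher and 2424 lower, or 59.9% of calls higher against 48.7% in the reported fit. A limma fit to log2(TPM + 1) raised them by 0.47 and gave 3626 higher and 1544 lower (70.1% higher). Of the 5 alternatives called other scalings here, the limma fit also changed the test and the unit. Under all 5 of them 2376 of the higher and 1482 of the lower genes kept their call. Under the limma fit alone 1516 of the lower genes did.

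**Figure D1:**
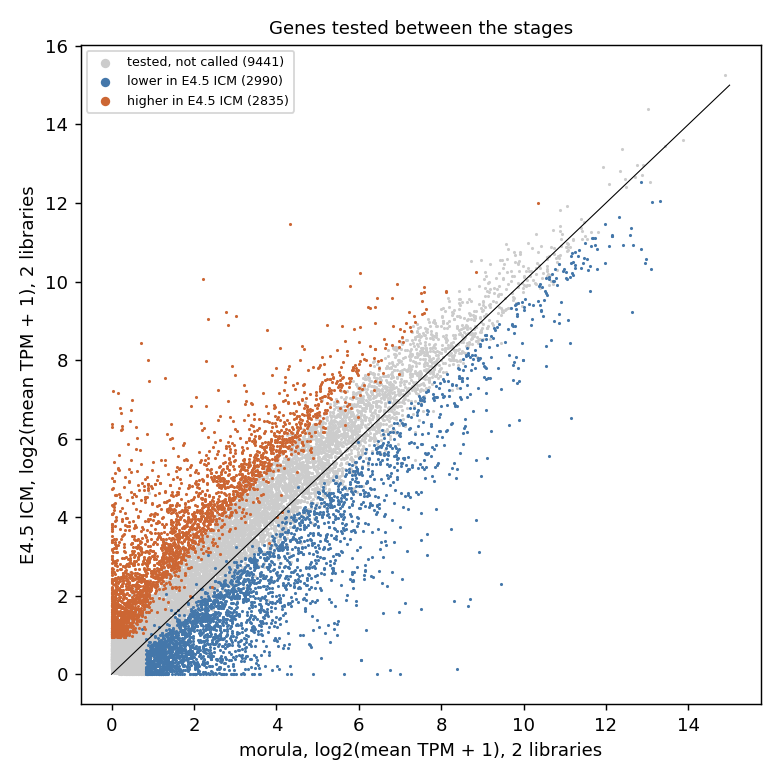
Mean level of each of the 15266 tested genes in the 2 morula libraries (x axis) and the 2 E4.5 ICM libraries (y axis), as log2(mean TPM + 1), with equal levels on the line. Genes called higher in the ICM (2835) and lower (2990) lie on both sides, and grey genes were not called.

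The libraries were first checked against markers of the cell types they could hold. The summed level of 8 epiblast markers was 148 and 130 TPM in the morulae and 591 and 603 TPM in the ICM, and 6 of the 8 were called higher. For 8 primitive endoderm markers the sums were 212 and 222 TPM against 518 and 528 TPM, with 6 higher and 1 lower. Those of 8 trophectoderm markers were 344 and 358 TPM against 67.3 and 73.4 TPM, with 5 of 8 lower and 0 higher. The residue of *Krt8* and *Krt18* transcripts in the ICM is given below, and whether it came from remaining TE cells was not tested. Because the ICM is only part of the blastocyst, fewer cells of a type and less RNA per cell cannot be told apart in these bulk libraries. Markers of cells carried over from collection were low in all 4 libraries. Summed over 6 cumulus cell markers the level was at most 7.10 TPM, nearly all of it in the morulae from *Amhr2*, over 5 blood markers at most 2.79 TPM, and over 5 fibroblast markers at most 0.91 TPM.

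**Figure D2:**
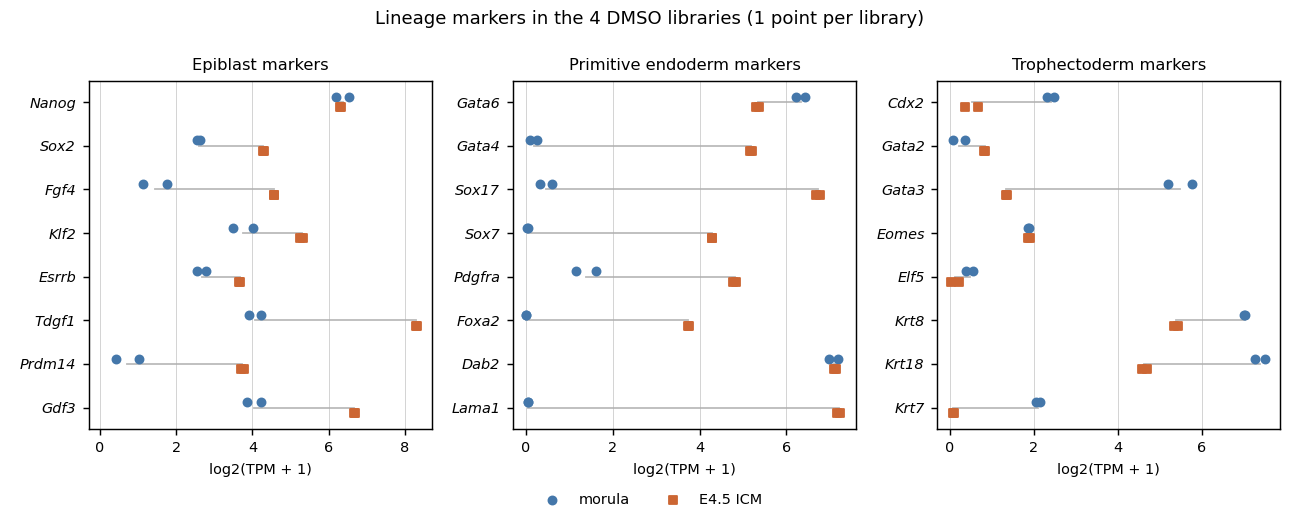
Levels of 8 epiblast, 8 primitive endoderm and 8 trophectoderm markers as log2(TPM + 1), with 1 circle per morula library, 1 square per E4.5 ICM library and a grey line between the stage means. Epiblast markers apart from *Nanog* and most primitive endoderm markers lie further right in the ICM, while *Gata6*, *Cdx2*, *Gata3* and the keratins lie further left.

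The core pluripotency factors did not move as 1 group. Of 23 naive pluripotency factors, all tested, 11 were higher in the E4.5 ICM, 5 were lower and 7 were not called, with a median log2 fold change of 0.60 against 0.05 over all genes tested. *Pou5f1*, which encodes OCT4, was at 55.6 and 65.0 TPM in the morulae and 204 and 213 TPM in the ICM (log2 fold change 1.23, SE 0.11, adjusted p = 0.00043). *Sox2*, its partner on DNA, rose from 5.20 and 4.82 TPM to 18.2 and 18.9 TPM (1.36, SE 0.14). *Nanog* was already at 91.9 and 72.5 TPM in the morulae and was at 78.5 and 77.5 TPM in the ICM, and the stages overlapped in TPM. Its fitted change of -0.54 (SE 0.15) was below the 2-fold threshold. *Zfp42* (REX1), *Klf5* and *Tbx3* were not called, with fitted changes of -0.10, 0.07 and -0.07 whose sign turned under at least 1 other scaling. All 4 were thus well detected in the morulae. The other Kruppel-like factors *Klf2* and *Klf4* rose by 1.05 (SE 0.22) and 1.33 (SE 0.15), but without morula replicate 2 the change of *Klf2* was 0.69 and not called.

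Several transcription factors of naive cells were higher in the ICM, most of them from low levels in the morulae. *Nr0b1* (DAX1), a nuclear receptor that binds OCT4, was at 0.10 and 0 TPM in the morulae and at 41.3 and 41.6 TPM in the ICM, a ratio of 626 (95% counting interval 173 to 5169) that rests on few morula counts. It was close to the detection limit in the morulae and moderately abundant in both ICM libraries. *Prdm14*, a repressor of differentiation genes, rose from 0.33 and 1.02 TPM to 12.0 and 12.7 TPM (3.64, SE 0.37). *Mycn* (5.10, SE 0.18), *Zscan10* (4.04, SE 0.14), *Hesx1* (3.61, SE 0.30) and the chromatin-bound *Utf1* (2.95, SE 0.14) also rose. None of their values overlapped between the stages, as held for scaled counts of 83.5% of all genes tested. *Utf1* was already at 20.2 and 25.4 TPM in the morulae.

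The 5 naive factors that were lower include regulators of the cleavage stages. *Tfap2c*, an AP-2 factor of the morula, fell from 32.3 and 27.5 TPM to 2.74 and 2.39 TPM (-4.08, SE 0.17). *Nr5a2*, a nuclear receptor that acts from the 2-cell stage on, fell from 17.4 and 17.3 TPM to 2.33 and 2.36 TPM (-3.33, SE 0.15). *Tfcp2l1*, a target of LIF signalling in naive cells, fell from 138 and 146 TPM to 34.0 and 35.9 TPM (-1.97, SE 0.13). For these 3 genes both morula libraries were far above both ICM libraries. *Spic*, an ETS-family gene, stood at 65.8 and 150 TPM in the morulae and at 56.0 and 54.7 TPM in the ICM (-1.33, SE 0.33), and it lost its call without morula replicate 2 (-0.75) and under log2(TPM + 1) (-0.83). *Klf17* went from 2.17 and 0.55 TPM to 0 and 0.04 TPM.

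Among 18 genes that accompany pluripotency, 9 were higher, 3 were lower and the median log2 fold change was 1.25. The EPI gene *Tdgf1* (Cripto), a co-receptor for Nodal, rose from 13.9 and 17.8 TPM to 311 and 318 TPM (3.84, SE 0.14). *Upp1*, a uridine phosphorylase, rose from 5.33 and 6.80 TPM to 459 and 491 TPM (5.79, SE 0.18). For both genes the ICM replicates differed by under 10% and lay far above the morulae. *Tcl1*, an activator of AKT, rose from 2.71 and 5.02 TPM to 247 and 251 TPM (5.50, SE 0.24), although late 2-cell embryos given DMSO held a mean of 854.5 TPM. *Eras* (4.77, SE 0.25), *Pim2* (3.48, SE 0.16), *Morc1* (4.94, SE 0.31) and *Tdh*, the threonine dehydrogenase of naive cells (2.64, SE 0.12), followed the same direction. *Dppa3* (Stella), which protects DNA methylation marks in the early embryo, was at 6845 and 9066 TPM in the morulae and at 1407 and 1417 TPM in the ICM (-3.06, SE 0.16). It shares 29.6% of its 31-base words with other genes, so its counts could be split between copies. *Fbxo15* (-1.55, SE 0.13) and *Lin28b* (-2.89, SE 0.24) were the other genes lower in the ICM.

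Formative and primed genes, which mark the epiblast after implantation, were mostly low. Of 12 listed genes 7 were tested, and *Dnmt3b*, *Dnmt3a* and *Foxd3* were higher. *Foxd3* reached 2.53 and 2.49 TPM. *Otx2* fell from 5.46 and 2.90 TPM to 1.83 and 1.25 TPM (-1.91, SE 0.38; -0.99 and not called under log2(TPM + 1)), and *Fgf5*, *Pou3f1* and *Zic2* stayed at or below 0.31 TPM in every library.

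Primitive endoderm factors had the highest median change of the lists. Of 7 PrE transcription factors, 6 were higher and 1 was lower, with a median of 7.14 on the log2 scale, or 6.16 where the gene without morula counts was set to its lower bound. With limma on log2(TPM + 1) the median was 3.74. *Gata6*, the earliest of them and a gene of all early ICM cells, was the 1 that fell, from 85.4 and 73.8 TPM to 38.7 and 40.5 TPM (-1.42, SE 0.11), and it missed the 2-fold threshold under log2(TPM + 1). *Sox17*, which follows it, rose from 0.52 and 0.24 TPM to 101 and 108 TPM (7.14, SE 0.25). *Gata4* rose from 0.07 and 0.19 TPM to 35.1 and 36.3 TPM, a ratio of 376 (95% counting interval 147 to 1382). The 2 GATA factors thus moved in opposite directions. Neither overlapped between stages, as held for 83.5% of all genes tested. *Sox7* was at 0.03 and 0.02 TPM in the morulae and at 18.6 and 18.5 TPM in the ICM. *Foxa2* had no count in either morula library and was at 12.4 and 12.3 TPM in the ICM, at least 71.5-fold higher against 3 counts per library. *Hnf4a*, a factor of later visceral endoderm, reached only 1.27 and 1.60 TPM. It lost its call with counts thinned to the smallest total (2.16) and in the fit of all 18 libraries (2.42), among other alternatives.

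PrE cells also build a basement membrane. Of 24 listed PrE receptors, matrix and secreted proteins 21 were tested, of which 16 were higher and 3 lower, with a median of 2.80. *Lama1*, the laminin alpha chain, went from 0.03 TPM in both morula libraries to 144 and 151 TPM (10.2, SE 0.19). Its partner chains *Lamb1* and *Lamc1* started from 5.64 and 4.74 TPM and from 5.82 and 4.17 TPM, and rose by 3.72 (SE 0.13) and 4.20 (SE 0.12). All 3 chains of this laminin were thus between 93.1 and 152 TPM in the ICM, though only the beta and gamma chains were detected well in the morulae. *Sparc*, a matrix protein, rose from 3.04 and 4.31 TPM to 1054 and 1087 TPM (7.58, SE 0.17), and *Srgn*, a proteoglycan core protein, from 0.71 and 0.55 TPM to 342 TPM in both libraries (8.46, SE 0.20). The collagen chaperone *Serpinh1* (7.69, SE 0.19), the collagen chains *Col4a1* (2.63, SE 0.11) and *Col4a2* (2.71, SE 0.14) and the collagen-modifying *P4ha2* (2.55, SE 0.11) and *Plod2* (2.26, SE 0.20) rose too. The basement membrane gene *Nid1*, at 18.7 and 18.1 TPM against 20.9 and 23.8 TPM, was not called (0.20, SE 0.13).

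Among the endocytic receptors of PrE the direction was mixed. *Amn* (5.43, SE 0.17) and *Cubn* (2.97, SE 0.13), which form 1 receptor complex, rose, whereas *Lrp2* (megalin) fell from 16.3 and 17.1 TPM to 2.31 and 2.34 TPM (-3.28, SE 0.11). Their adaptor *Dab2* was at 125 and 146 TPM in the morulae and 141 and 135 TPM in the ICM and was not called. *Pdgfra*, a receptor used to mark PrE cells, rose from 1.23 and 2.08 TPM to 27.8 and 26.3 TPM (3.38, SE 0.25). *Apoa1* and the transcriptional co-activator *Cited1* fell by 5.00 (SE 0.21) and 4.80 (SE 0.15), and *Apoe* rose by 3.71 (SE 0.15). *Afp* and *Ttr*, products of mature yolk sac endoderm, did not exceed 0.57 TPM. In 2iES cells given DMSO, which are naive embryonic stem cells without PrE, the means of *Gata4*, *Sox17*, *Sox7* and *Foxa2* were all at or below 0.225 TPM, while *Sparc* was at 178 TPM and *Apoe* at 837 TPM.

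Of 12 TE transcription factors 10 were tested, with 6 lower, 1 higher and a median of -2.68. With limma on log2(TPM + 1) 4 were lower and the median was -0.65. *Gata3* was at 53.2 and 35.5 TPM in the morulae and at 1.56 and 1.52 TPM in the ICM (-5.38, SE 0.27). *Cdx2*, required for the TE, fell from 4.01 and 4.59 TPM to 0.29 and 0.60 TPM (-3.80, SE 0.36). *Id2*, an early marker of outer cells, fell from 56.6 and 84.1 TPM to 13.1 and 13.9 TPM (-2.95, SE 0.20). For each of the 3 genes every morula library was above every ICM library, though the stages did not overlap for 83.5% of all genes tested. *Tead4*, the DNA-binding partner of YAP upstream of *Cdx2*, fell less (-1.26, SE 0.15) and was not called under the scalings by library totals and by TPM. *Eomes* was at 2.61 to 2.77 TPM in all 4 libraries and was not called. *Msx2* was the 1 listed factor that rose (1.69, SE 0.31).

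Of 20 TE keratins and junction genes, all tested, 10 were lower, 3 were higher and the median was -1.14. The simple-epithelium keratins *Krt8* and *Krt18*, which pair in filaments, fell from 128 and 131 TPM to 39.3 and 42.6 TPM (-2.19, SE 0.11) and from 153 and 181 TPM to 22.8 and 24.9 TPM (-3.35, SE 0.13). *Krt7* fell from 3.15 and 3.45 TPM to 0.07 and 0.05 TPM (-6.25, SE 0.30). Desmosomal *Dsp* (-3.49, SE 0.13) and *Pkp2* (-3.66, SE 0.17) and the tight-junction genes *Cgn* (-3.01, SE 0.20), *Cldn7* (-2.30, SE 0.11) and *Cldn4* (-2.06, SE 0.12) also fell. In contrast *Dsg2* (1.86, SE 0.13), *Ezr* (1.23, SE 0.11) and *Lgals3* (1.15, SE 0.20) rose, the last only with morula replicate 1 in the fit (0.89 without it), and E-cadherin (*Cdh1*, 27.5 and 22 TPM against 22.3 and 21.4 TPM) and *Epcam* were not called. Of 14 genes for fluid and solute transport 4 were lower and 2 higher, with a median of -0.03. With limma on log2(TPM + 1) this balance turned, with 2 lower, 3 higher and a median of 0.38. The water channels *Aqp3* (-1.497, SE 0.21) and *Aqp9* (-2.62, SE 0.15) were lower, the former not called under log2(TPM + 1) (-0.88), but *Aqp8* went from 0 and 0.22 TPM to 136 and 146 TPM (9.68, SE 0.38).

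The gene lists that the study took from public embryo data, and not from these libraries, were counted in the same way. Of 807 ICM genes 804 were tested, with 415 higher, 71 lower and a median of 1.16. The part that the study names late ICM genes (240 tested) had 185 higher, 5 lower and a median of 3.39, whereas the early part (564 tested) had 230 higher, 66 lower and a median of 0.62. The study set this split by whether the level in cleavage-stage embryos, before the morula, reached 1 FPKM. The low start of the late part was thus largely fixed by its definition, so its larger rise is no separate support. Of 942 tested TE genes 367 were lower, 100 were higher and the median was -0.72. With limma on log2(TPM + 1) 214 were lower, 128 were higher and the median was -0.18. EPI genes (186 tested) had 78 higher and 26 lower, with a median of 0.74, and PrE genes (251 tested) had 136 higher and 19 lower, with a median of 1.19. The late parts of the EPI and PrE lists had medians of 2.47 and 2.90. By the study's definition their genes were expressed in fewer cells of the earlier blastocyst, so this rise is likewise partly built in. Of these lists only the late TE genes had a median that changed sign with the scaling, from -0.43 to 0.01 under log2(TPM + 1).

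The most abundant list members put these counts in terms of transcripts. *Spp1* (osteopontin), a secreted integrin ligand, rose from 16.6 and 21.9 TPM to 2800 and 2805 TPM (6.64, SE 0.18) and had the highest level of the ICM-list genes that rose. *Hspb1* rose from 39.6 and 68.6 TPM to 933 and 968 TPM (3.58, SE 0.25), with 52.3% of its 31-base words shared with other genes. In the PrE list the endoplasmic reticulum proteins *Ppib* (1.72, SE 0.13) and *Hspa5* (2.19, SE 0.18) and the lysosomal protease *Ctsl* (2.10, SE 0.11) followed *Sparc*. Of the TE list *Crxos*, a homeobox gene, fell from 5772 and 6935 TPM to 599 and 598 TPM (-3.74, SE 0.13), and the metallothioneins *Mt1* (-2.07, SE 0.17) and, in the EPI list, *Mt2* (-2.48, SE 0.23) fell. ICM-list genes that fell include *Sat1*, an enzyme of polyamine breakdown (-2.72, SE 0.20), and *Bhmt*, a methyltransferase of methionine synthesis, at 384 and 713 TPM against 45.9 and 43.8 TPM (-4.13, SE 0.30).

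Signalling was examined by role. In the FGF list 18 of 20 genes were tested, 9 were higher, 0 were lower and the median was 1.58. Among the ligands, *Fgf4*, made by EPI precursors, rose from 2.37 and 1.19 TPM to 22.6 TPM in both ICM libraries (3.54, SE 0.27), and *Fgf3* rose from 0.19 and 0.13 TPM to 20.95 and 22.9 TPM (6.20, SE 0.24). None of the 4 receptor genes was called. *Fgfr2*, the most abundant, was at 15.7 and 18.4 TPM in the morulae and 30.7 and 32.1 TPM in the ICM (0.64, SE 0.11), and *Fgfr1* was at 6.55 and 3.94 TPM against 4.39 and 4.62 TPM. The genes that ERK induces were therefore compared next. *Spry4*, a feedback inhibitor, rose from 0.21 and 0.17 TPM to 6.79 and 6.84 TPM (4.63, SE 0.21), *Spry1* by 3.15 (SE 0.30), *Etv4* by 5.15 (SE 0.47), *Etv5* by 2.24 (SE 0.13) and *Dusp5* by 2.31 (SE 0.43). *Egr1*, an immediate early gene, was at 0 and 0.03 TPM against 5.42 and 4.75 TPM, a ratio of 274 with a counting interval of 49.1 to 10852. *Spry2* (0.24, SE 0.20), *Dusp4* (0.10, SE 0.12) and *Dusp6* (0.77, SE 0.20) were not called.

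Of 25 genes of Nodal and BMP signalling, all tested, 9 were higher and 6 were lower, with a median of 0.11. Under library totals 10 were higher and 2 lower, and with limma on log2(TPM + 1) 10 and 1. *Nodal* rose from 0.33 and 0.19 TPM to 12.4 and 11.3 TPM (4.99, SE 0.30), and the related ligand *Gdf3* from 13.5 and 17.7 TPM to 101 and 102 TPM (2.21, SE 0.14). The Nodal antagonists, which are also its targets, rose as well: *Lefty1* from 0.27 and 0.10 TPM to 14.3 and 14.6 TPM (5.70, SE 0.36), and *Lefty2* from no count in either morula library to 24.6 and 25.6 TPM, at least 175-fold. Ligand, co-receptor and antagonist were thus all far above the morula level in both ICM libraries. Downstream, the receptor *Acvr1b* (-1.01, SE 0.34) and the effector *Smad3* (-1.002, SE 0.24) passed the threshold narrowly and were lost when libraries were scaled by totals or TPM and without 3 of the 4 libraries in turn (-0.64 to -0.96 and -0.80 to -0.98). *Bmp4* rose from 0.11 and 0.59 TPM to 35.3 and 37.3 TPM (7.15, SE 0.27), with its effectors *Smad1* (1.43, SE 0.23) and *Smad5* (1.94, SE 0.20). Of the ID genes that BMP induces, *Id3* rose from 71.8 and 70.1 TPM to 248 and 261 TPM (1.29, SE 0.11), *Id1* was not called (0.11, SE 0.34) and turned negative without morula replicate 2 or ICM replicate 1, and *Id2* fell as given above.

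For LIF, which sustains naive cells through STAT3, the receptor subunits rose. *Lifr* rose from 0.06 and 0.04 TPM to 17.2 and 19.3 TPM (7.88, SE 0.19) and *Il6st* (gp130) from 0.30 and 0.02 TPM to 4.62 and 4.03 TPM (4.82, SE 0.54). *Stat3* (1.05, SE 0.15) and its target *Socs3* (1.65, SE 0.30) were higher, while *Lif* (-2.38, SE 0.34) and *Jak2* (-1.44, SE 0.25) were lower and *Jak1* was not called. *Lif* was at 0.77 and 1.22 TPM in the morulae and at 0.81 and 0.62 TPM in the ICM, values that overlap, and under log2(TPM + 1) neither *Lif* (-0.21) nor *Jak2* (-0.48) was called. The calls of *Stat3* and *Jak2* were lost without morula replicate 2 (0.84) and without ICM replicate 2 (-1.14). In the WNT list (19 tested) 5 were higher and 2 lower. *Dkk1*, a secreted WNT antagonist, rose from 0.14 and 0.67 TPM to 124 and 125 TPM (7.70, SE 0.38) and *Tcf7l1*, a repressor of WNT targets, from 0 and 0.13 TPM to 12.5 and 12.8 TPM (6.97, SE 0.48). *Porcn*, which acylates WNT ligands, and *Wnt6* rose by 1.85 (SE 0.17) and 1.23 (SE 0.23), and *Wnt7b* fell by 2.90 (SE 0.44). *Ctnnb1* (beta-catenin) stayed between 134 and 140 TPM in all 4 libraries, and the WNT target *Axin2* was not called (0.34, SE 0.26).

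**Figure D3:**
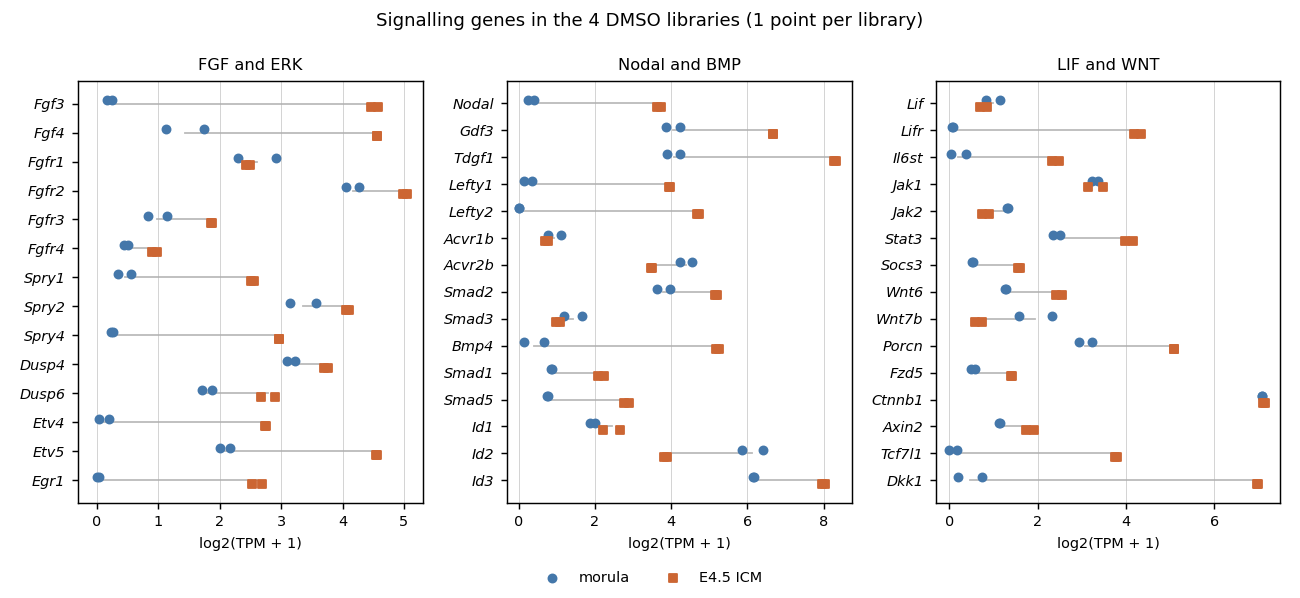
Levels of FGF, Nodal, BMP, LIF and WNT genes as log2(TPM + 1), with 1 circle per morula library and 1 square per E4.5 ICM library. Ligands and antagonists such as *Fgf3*, *Lefty2*, *Bmp4* and *Dkk1* were near 0 in the morulae and high in the ICM, while *Fgfr1*, *Jak1* and *Ctnnb1* lay at like levels in both stages.

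The Hippo pathway, which tells outer from inner cells through YAP, had 4 genes higher and 5 lower of 21 tested, and its median of -0.40 turned to 0.11 under log2(TPM + 1). *Yap1* was at 9.10 and 6.88 TPM in the morulae and 8.31 and 8.59 TPM in the ICM, and neither it nor *Wwtr1* (TAZ) was called. *Amot*, which holds YAP outside the nucleus (-1.58, SE 0.15), and *Sav1*, a scaffold of the kinases (-2.47, SE 0.29), were lower, the former not under log2(TPM + 1) (-0.91), and the kinase *Stk3* was higher (1.79, SE 0.20). The YAP target genes *Ccn1* and *Ccn2* rose from 7.53 and 5.11 TPM to 90.9 and 93.5 TPM (3.33, SE 0.21) and from 7.04 and 7.03 TPM to 52.3 and 51.1 TPM (2.34, SE 0.12). Of *Ccn2*, 23.2% of exonic bases overlap an antisense gene, which these unstranded libraries do not separate.

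Many transcripts inherited from the oocyte were low at both stages. Of 31 oocyte transcripts only 16 had enough counts to be tested. *Omt2a* and *Omt2b*, at means of 10136 and 12599 TPM in late 2-cell embryos given DMSO, were at 2.95 and 2.57 TPM and at 1.57 and 1.52 TPM in the morulae and had no count in the ICM, at least 13.9-fold and 9.46-fold lower. *Padi6*, a component of the cytoplasmic lattices, fell from 3.19 and 2.05 TPM to 0.37 and 0.51 TPM (-3.10, SE 0.39). Some genes of this list were instead higher in the ICM: *Ooep* rose from 11.2 and 10.8 TPM to 64.3 and 62.2 TPM (1.99, SE 0.12), its partner *Tle6* by 2.54 (SE 0.25) and the germ cell RNA-binding protein gene *Dazl* from 0.60 and 0.94 TPM to 20.1 and 19.7 TPM (3.93, SE 0.18). In all, 6 oocyte genes were higher and 5 lower, so the list had no common direction.

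Genes of the 2-cell stage and of genome activation were low or lower in the ICM. Of 21 such genes 8 were tested, 5 were lower and 0 were higher. *Sp110* was at 77.7 and 69.8 TPM in the morulae and at 6.36 and 6.88 TPM in the ICM (-4.02, SE 0.17), and *Tdpoz2* fell from 4.47 and 5.66 TPM to 0.05 and 0.20 TPM (-5.87, SE 0.53). Both belong to families of near-identical copies, with 48.2% and 66.3% of their 31-base words found in other genes, so their counts are uncertain. The 6 listed *Zscan4* genes stayed at or below 0.49 TPM in all 4 libraries. Of the Obox homeobox genes only *Obox6* was clearly present, at 17.8 and 26.4 TPM in the morulae and 2.60 and 2.55 TPM in the ICM (-3.64, SE 0.23), and *Obox8* had about 1 TPM in the morulae and no count in the ICM.

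The de novo DNA methyltransferases rose. Of 9 tested genes of this list 4 were higher and 1 was lower, with a median of 0.98. *Dnmt3b*, a de novo methyltransferase, rose from 9.70 and 10.0 TPM to 78.5 and 80.8 TPM (2.60, SE 0.11) and *Dnmt3a* from 9.54 and 11.2 TPM to 44.9 and 44.7 TPM (1.25, SE 0.14). *Uhrf1*, which brings DNMT1 to replicating DNA, rose by 1.23 (SE 0.12), *Dnmt1* itself was not called (0.94, SE 0.12) but passed without either ICM library (1.07 and 1.04), and the demethylase gene *Tet2* fell from 38.6 and 34.6 TPM to 19.5 and 18.96 TPM (-1.20, SE 0.11). Every ICM library was above every morula library for the de novo enzymes, and below for *Tet2*, while 83.5% of all genes tested showed no overlap. The fall of *Tet2* was not called when libraries were scaled by totals or TPM.

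Of 23 tested imprinted genes, which are read from 1 parental copy, 5 were higher (21.7%), 4 were lower (17.4%) and the median was 0.13. These shares were near the 18.6% and 19.6% of all genes tested. The long noncoding RNA *H19* had no count in the morulae and was at 4.45 and 3.77 TPM in the ICM, at least 15.1-fold higher, and *Meg3* rose from 4.30 and 5.26 TPM to 21.1 and 26.2 TPM (1.22, SE 0.17). *Igf2r* fell from 9.57 and 7.29 TPM to 2.95 and 2.93 TPM (-2.04, SE 0.18). *Xist*, the RNA that coats the inactive X chromosome of female cells, fell from 36.0 and 33.1 TPM to 7.83 and 8.91 TPM (-1.76, SE 0.10). Its antisense partner *Tsix* fell by 1.18 (SE 0.24), a call lost without morula replicate 2 (-0.81) and when libraries were scaled by totals or TPM, and 32.6% of its exonic bases overlap *Xist*, so reads of the 2 genes cannot be told apart there. The Y-linked *Eif2s3y* was at 11.8 and 10.1 TPM against 33.8 and 33.5 TPM (1.22, SE 0.13), and *Ddx3y* was not called, so whether the mix of male and female embryos differed between libraries could not be settled from these genes.

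*Gabpa* itself, on GRCm38 at chr16:84834925-84863779, was at 6.67 and 8.13 TPM in the morulae and at 10.1 and 11.2 TPM in the ICM. The fitted change was -0.30 (SE 0.12, adjusted p = 0.069), although TPM was higher in the ICM, and its sign turned under log2(TPM + 1), so no change was called in either direction. Late 2-cell embryos given DMSO had a mean of 103 TPM. Its partner subunits *Gabpb1* (0.03, SE 0.19) and *Gabpb2* (-0.31, SE 0.14) were not called either, and each changed sign under 1 other scaling. Of 20 tested genes for the GABP subunits and other ETS factors, these 3 included, 6 were higher and 3 were lower, and the median of -0.13 turned positive under scaling by totals or TPM. *Etv1* had no count in the morulae and 5.88 and 4.90 TPM in the ICM, at least 47.6-fold higher, and *Elk3* (2.83, SE 0.31) and *Etv6* (2.06, SE 0.25) rose beside *Etv4* and *Etv5*. *Elf3* was the most abundant ETS gene in the ICM, at 158 and 162 TPM against 101 and 95.6 TPM, and was not called.

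ETS factors including GABPA bind a core of CCGGAAG. On either strand these letters were found in 8.86% of 32851 RefSeq promoter windows of GRCm38.p6, each from 250 bases before to 50 after a start, and in 17.0% of the 13574 windows of tested genes. The share was 13.7% for genes higher in the ICM, 13.0% for genes lower, and 1637 of 8569 windows of genes not called held it. It was 36.6% of 71 windows for cytosolic ribosomal proteins and 0 of 21 for naive pluripotency factors, of which 17 genes had a window. A match of letters is a description and not a site of binding. The sequences around a match upstream of a RefSeq start are shown for *Gabpa* and, among list genes that were called, for the most abundant of each direction, to let the match be seen in its context. Each is written 5′ to 3′ on the strand of the gene with the match in capitals, which read CTTCCGG where the motif lies on the other strand. Those of *Sdhd* and *Srgn* lie outside the span that GENCODE gives the gene, while the others lie inside it, since that span has a start further upstream. The genes *Rpl41*, *Rps25* and *Rplp2* were lower in the ICM, and *Sdhd*, *Srgn* and *Ccnd3* were higher. *Rps25* was at the edge of the criteria (-1.03) and lost its call without any 1 of 3 libraries (-0.91 to -0.96), and *Rplp2* was not called under log2(TPM + 1) (-0.97).
Gabpa (chr16:84835004-84835064, + strand): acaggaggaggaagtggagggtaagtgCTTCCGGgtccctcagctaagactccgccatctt
Rpl41 (chr10:128549191-128549251, - strand): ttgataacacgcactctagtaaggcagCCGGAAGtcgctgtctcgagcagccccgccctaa
Rps25 (chr9:44407614-44407674, + strand): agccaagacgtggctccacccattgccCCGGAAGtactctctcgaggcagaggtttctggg
Rplp2 (chr7:141447516-141447576, + strand): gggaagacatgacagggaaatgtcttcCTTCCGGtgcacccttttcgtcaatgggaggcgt
Sdhd (chr9:50603862-50603922, - strand): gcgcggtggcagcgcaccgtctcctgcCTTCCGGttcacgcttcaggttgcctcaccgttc
Srgn (chr10:62527464-62527524, - strand): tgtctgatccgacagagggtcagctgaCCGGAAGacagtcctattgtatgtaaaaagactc
Ccnd3 (chr17:47593302-47593362, + strand): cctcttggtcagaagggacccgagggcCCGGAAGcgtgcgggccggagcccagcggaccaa

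Glycolytic genes rose along most of the pathway. Of 22 genes, all tested, 13 were higher, 1 was lower and the median was 1.63. At the committed step the phosphofructokinase genes *Pfkl* and *Pfkp* rose from 1.38 and 1.5 TPM to 40.7 and 44.9 TPM (4.33, SE 0.13) and from 0.11 and 0.57 TPM to 29.1 and 28.4 TPM (6.37, SE 0.36). *Gapdh* was at 121 and 122 TPM in the morulae and at 963 and 986 TPM in the ICM (2.86, SE 0.13). At the last step *Pkm* rose by 2.29 (SE 0.11), and lactate dehydrogenase *Ldha* from 6.22 and 7.84 TPM to 190 and 200 TPM (4.26, SE 0.14). In each of these genes the lower ICM library was several times the higher morula library. *Gapdh*, *Pkm*, *Eno1* and *Pgk1* share 27.2% to 54.7% of their 31-base words with other genes. The glucose transporters *Slc2a1* and *Slc2a3* and the hexokinase *Hk2* were not called, at 10.5 and 4.42 against 12.2 and 12.4 TPM, at 26.96 and 22.2 against 37.0 and 38.6 TPM and at 36.5 and 30.6 against 56.4 and 62.4 TPM. Of these, *Slc2a1* rested on 1 library, with a fitted change of 1.03 that passed the test without morula replicate 1 and of -0.10 without morula replicate 2. Of the list, *Hk1* alone was lower (-1.55, SE 0.19), and it was not called under log2(TPM + 1) (-0.66).

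Of 22 genes of the citric acid cycle, all tested, 6 were higher and 0 lower, with a median of 0.66. Under library totals 9 were higher and with limma on log2(TPM + 1) 12, with 0 lower in either. *Sdhd* rose from 49.0 and 77.8 TPM to 346 and 350 TPM (1.92, SE 0.20), *Mdh1* by 1.55 (SE 0.17) and *Idh2* by 1.42 (SE 0.15). Nuclear genes for complex I of the respiratory chain showed no common direction: 3 of 36 were higher, 2 were lower, and the median of -0.18 turned positive under scaling by totals or TPM. Of the 13 protein-coding transcripts of the mitochondrial genome 5 were lower and 0 higher, with a median of -0.72. Under library totals 3 were lower. With limma on log2(TPM + 1) 3 were lower and 1 higher, with a median of -0.17. Their fitted changes differed within the genome. *mt-Nd2* fell from 3233 and 3029 TPM to 1340 and 1358 TPM (-1.77, SE 0.12), while *mt-Co1* was at 1911 and 1878 TPM against 3670 and 3620 TPM (0.40, SE 0.12). That contrast is uncertain, since 63.9% of the words of *mt-Co1* and 13.5% of those of *mt-Nd2* occur in other genes. The fall listed for *mt-Nd4l*, at 77.6 and 20.8 TPM against 0, is uncertain, since 98.9% of its words occur in other genes. The mitochondrial genome took 6.73% and 5.60% of counts in the morulae and 3.88% and 3.78% in the ICM.

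Most cytosolic ribosomal protein genes fell. Of 81 genes, all tested, 49 were lower, 0 were higher and 78 had a negative fitted change, with a median of -1.12. *Rpl41* was at 10952 and 9470 TPM in the morulae and at 4098 and 4314 TPM in the ICM (-1.92, SE 0.15), *Rps29* at 9950 and 7866 TPM against 4122 and 4212 TPM (-1.76, SE 0.18) and *Rplp1* at 5145 and 2951 TPM against 1383 and 1472 TPM (-2.14, SE 0.30). At the other end *Rpl3* (0.02, SE 0.11) and *Rpl4* (0.07, SE 0.11) were not called. Together they took 12.8% and 10.4% of counts in the morulae and 6.50% and 6.58% in the ICM. The size of this fall depended on the scale. The median stayed negative under each of the 5 other scalings but was -0.85 under library totals, with 32 genes lower, and -0.54 under log2(TPM + 1), with 11 lower. Transcript length moved with the changes too. Among all tested genes the 3817 with the shortest transcripts, up to 1250 bases, had a median of -0.43, against 0.40 for the 3816 from 1251 to 2012 bases and -0.10 for the 3817 longest. The 4405 other protein-coding genes no longer than the longest ribosomal protein gene (1681 bases) had a median of 0.13. The part of length in the fall of ribosomal protein genes was not tested, and many of these genes share words with processed pseudogenes.

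**Figure D4:**
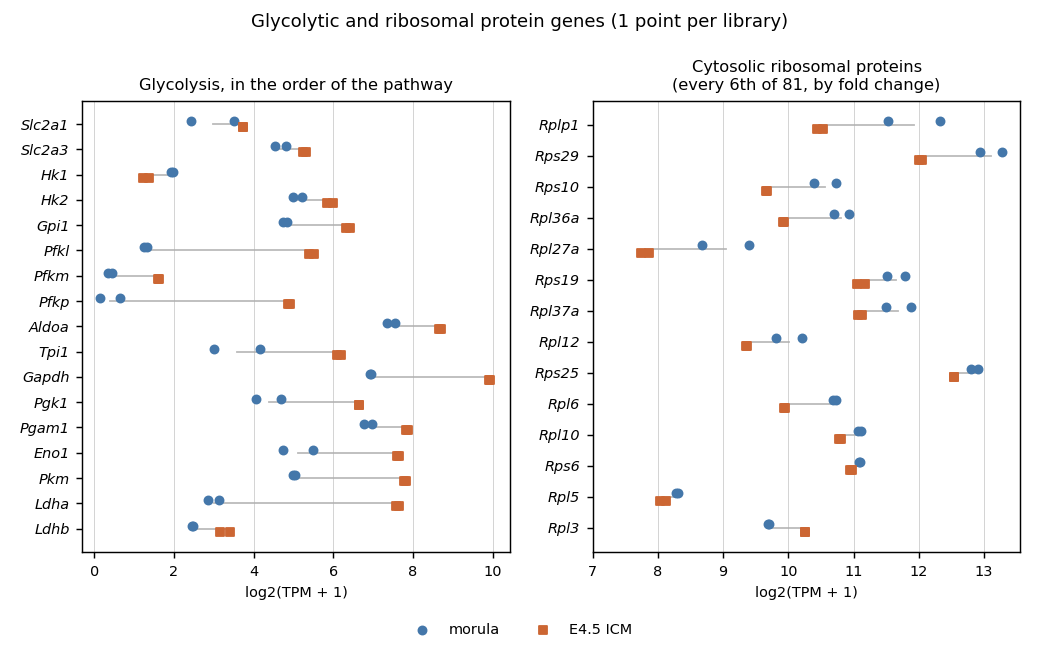
Levels of 17 glycolytic genes in the order of the pathway and of every 6th of 81 cytosolic ribosomal protein genes ordered by fold change, as log2(TPM + 1), with 1 circle per morula library and 1 square per E4.5 ICM library. The right-hand axis starts at 7. Glycolytic genes apart from *Hk1* lie further right in the ICM, by most for *Pfkl*, *Pfkp* and *Ldha*, and ribosomal protein genes apart from *Rpl3* lie further left.

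Among 19 tested cyclins, kinases and inhibitors, 7 were higher and 2 lower. The D-type cyclins, which link growth signals to the cycle, all rose, *Ccnd3* from 28.8 and 37.6 TPM to 121 and 127 TPM (1.37, SE 0.14), *Ccnd1* from 0.74 and 0.97 TPM to 7.39 and 7.96 TPM (1.91, SE 0.22) and *Ccnd2* from 0.23 and 0.38 TPM to 28.9 and 12.2 TPM (3.26, SE 0.31). The ICM replicates of *Ccnd2* were far apart but both were above the morulae. Their kinase *Cdk4* (1.497, SE 0.15) and *Cdk2* (2.00, SE 0.15) rose, and the mitotic *Cdk1*, *Ccnb1* and *Ccna2* were not called. The inhibitor *Cdkn1a* (p21), a target of p53, fell from 244 and 213 TPM to 36.7 and 38.8 TPM (-2.99, SE 0.15). Of 12 tested genes of the BCL2 family, which set the threshold for cell death, 5 were lower and 1 was higher. Under library totals 3 were lower and 1 higher. The balance turned only with limma on log2(TPM + 1), which also changes the test and the unit, with 2 lower and 3 higher. *Bok* fell from 29.8 and 26.6 TPM to 2.08 and 3.27 TPM (-4.06, SE 0.23), pro-apoptotic *Bcl2l11* (BIM) by 2.06 (SE 0.21) and protective *Mcl1* by 1.11 (SE 0.14), while *Bid* rose (1.19, SE 0.19). The calls of *Mcl1* and *Bid* were lost without ICM replicate 1 (-0.95) and without morula replicate 1 (0.97), and that of *Mcl1* also under log2(TPM + 1) (-0.56) and library totals (-0.84).

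**Figure D5:**
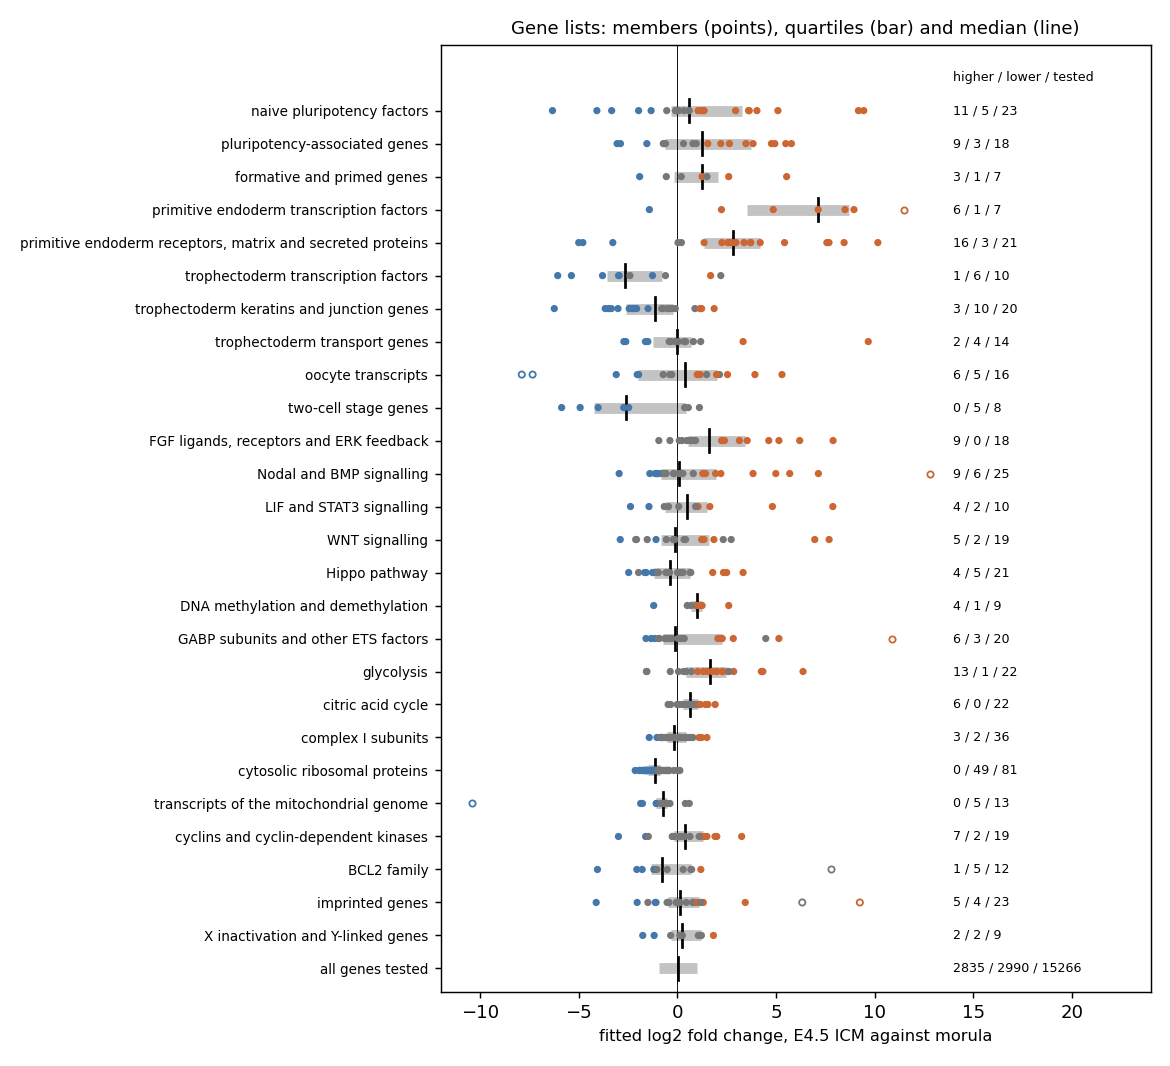
Fitted log2 fold change (E4.5 ICM against morula) of each tested member of 26 gene lists, with orange points called higher, blue points called lower, grey points not called and open points for genes with no count in 1 stage, whose fitted value is no bound. The grey bar spans the quartiles and the black line is the median. The median of the primitive endoderm factors lies furthest right, and those of the trophectoderm factors, 2-cell and ribosomal protein genes lie left of all genes tested (median 0.05).

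Genes with the largest changes were taken among called protein-coding genes with a mean of at least 10 TPM in 1 stage. *Flrt3*, a membrane protein of cell adhesion and FGF signalling, had no count in the morulae and was at 81.7 and 81.4 TPM in the ICM, at least 922-fold higher. *Trh*, the precursor of thyrotropin-releasing hormone, had none against 75.5 and 79.5 TPM, at least 287-fold. *Stmn2*, *Cobl*, *Akr1c12*, *Ubd*, *Nnmt*, *Crygc* and *Igf1* likewise had no count in the morulae and 12.2 to 31.5 TPM in the ICM, with bounds from 30.98-fold to 173-fold. *Slc7a3*, a transporter of cationic amino acids, was at 0.35 and 0 TPM against 101 and 99.5 TPM. These genes were not detected, or hardly, in the morula libraries, where 3 counts per library set the limit.

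In the other direction *Alppl2*, an alkaline phosphatase, fell from 302 and 360 TPM to 0.12 and 0.08 TPM (-12.2, SE 0.23). *Prl3b1*, a placental lactogen gene, was at 15.2 and 23.6 TPM in the morulae and had no count in the ICM, at least 145-fold lower, and *Cnmd* also had none, with a bound of 84.1-fold. *S100a3* and *Agmat*, with means just under 10 TPM in the morulae and named for having no count in the ICM, had bounds of 51.8-fold and 127-fold. *Actn2*, a crosslinker of actin, fell from 158 and 203 TPM to 2.37 and 1.97 TPM (-6.39, SE 0.20). Other genes of this group were *Csta1* (-6.63, SE 0.35), *Tnfsf13b* (-6.90, SE 0.47), *Pinlyp* (-6.47, SE 0.26) and *BC048679* (-6.56, SE 0.37). Counts of *D5Ertd577e* and *E330014E10Rik* are uncertain, since 84.2% and 96.2% of their words occur elsewhere.

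The protein-coding genes with the highest levels were examined last. *Dppa5a* was at 8328 and 8241 TPM in the morulae and at 21478 and 21671 TPM in the ICM, where it was the most abundant protein-coding transcript, and its fitted change of 0.79 (SE 0.12) missed the 2-fold threshold, which it passed when libraries were scaled by totals (1.05) or TPM (1.38). Of its words 57.2% occur in other genes. *Eloc*, a subunit of elongin, fell from 8644 and 8786 TPM to 1271 and 1269 TPM (-3.15, SE 0.12), and *Map1lc3b*, an autophagosome protein, from 7287 and 8746 TPM to 1499 and 1521 TPM (-2.69, SE 0.13). Its relative *Gabarapl2* fell from 6258 and 6683 TPM to 1949 and 1953 TPM (-2.06, SE 0.12). In all 3 genes every morula library was above every ICM library, a lack of overlap shared by 83.5% of all genes tested.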

How the data were processed

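Expected counts, TPM and FPKM per gene were deposited by the authors for each library. By the study's methods, libraries were made with SMART-Seq v4 and Nextera XT kits, which do not keep strand, reads were trimmed with Trimmomatic 0.39, aligned to GRCm38 with STAR and quantified with RSEM. Of 55385 identifiers 54487 were named from GENCODE M21 with their version and 657 without it, and 241 had no name.

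After rounding, expected counts of the 4 libraries alone were scaled by TMM and tested with the quasi-likelihood F test of edgeR 4.0.16 (limma 3.58.1, R 4.3.3), with Benjamini-Hochberg adjustment over the 15266 genes with at least 10 counts in 2 libraries. The standard error was taken from the log2 fold change and its F statistic. A gene at 0 in both libraries of a stage was given a lower bound of fold change, from 3 counts per library, and one with at most 3 counts a ratio with a 95% interval for counting error only. On simulated counts with 15095 genes the test recovered 71% of 100 genes changed 2-fold and 99% of 100 changed 4-fold, and called 1 unchanged gene. The simulation gave both stages the common spread of 0.147 and changed only few, well-counted genes. Recovery meant an adjusted p-value below 0.05 in the right direction, without the 2-fold and FPKM criteria. It checks the fit and does not give the power or the false calls of the reported results.

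The genes named are *Gabpa*, members of the gene lists, called protein-coding genes with the 12 largest changes (mean TPM of at least 10) or among 6 nearest the detection limit in the other stage, the 8 highest levels per stage, and the 5 most abundant called members of each study list and direction. Lists and members were chosen with earlier results of these data known. Shared sequence is the share of 31-base words of a gene's transcripts found in other genes. Alternatives included DESeq2 1.42.0, limma-voom, other scalings and filters, and leaving out each library. Libraries of other stages and conditions served only for levels or as named alternatives. Some items are not reported here.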

Additional observations from a re-analysis of the deposited data

How the results depend on the processing

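The split into 2835 genes higher and 2990 lower held within 1.5 times under all alternatives but 2. With limma on log2(TPM + 1) only 1544 genes were lower, and without the fold change threshold 4262 were higher and 4244 lower. DESeq2 gave 2684 higher and 2856 lower, of which 2677 and 2842 were shared with the reported calls. Leaving out 1 library at a time gave 2239 to 3086 higher and 2356 to 2936 lower, with the lone library assumed to vary like the other stage. Without an ICM library, genes present in the ICM alone cannot reach 10 counts in 2 libraries, so list counts of such genes fell by construction, among them those of the primitive endoderm factors from 6 to 3 and of the late ICM genes from 185 to 94 and 89. The oocyte and 2-cell genes called lower went from 5 each to 2 without either morula library. Of 4644 values of 226 named genes, 4493 kept direction and call, 73 lost the call, 21 gained it and 57 changed sign. All 23 genes whose sign changed were uncalled in the reported fit. Precision was limited by 2 libraries per stage. The morula libraries were also less deep, and the spread of a gene was shared between stages that differed in it. Counts thinned to the smallest total gave 2734 genes higher and 2918 lower, and limma-voom with weights per stage gave 2734 and 2917. The cause of the changes below was not tested.

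Values with the other sign, as log2 fold changes, were few per setting. With all 18 RNA-seq libraries in the fit they were *Ctnnb1* (0.01), *Tbx3* (0.11) and *Zfp42* (0.08). With a minimum of 50 counts they were *Dab2* (-0.06), *Gabpb1* (-0.06), *Klf5* (-0.02), *Rpl3* (-0.07), *Rpl4* (-0.02), *Slc2a3* (-0.03) and *Wwtr1* (-0.08). With counts thinned to the smallest total they were *Id1* (-0.06) and *Wwtr1* (-0.04). With library totals as the only scaling they were *Ccna2* (0.01), *Ctnnb1* (0.10), *Tbx3* (0.20) and *Zfp42* (0.17). With limma on log2(TPM + 1) they were *Ccna2* (0.02), *Ctnnb1* (0.04), *Eomes* (0.02), *Gabpa* (0.47), *Gabpb2* (0.32), *Jak1* (0.00), *Tbx3* (0.47), *Yap1* (0.08) and *Zfp42* (0.44). Without a filter on low counts they were *Tbx3* (0.09) and *Zfp42* (0.05). With the 9 DMSO libraries in the fit they were *Tbx3* (0.10) and *Zfp42* (0.06). With upper-quartile scaling they were *Dab2* (-0.05), *Gabpb1* (-0.05), *Klf5* (-0.01), *Rpl3* (-0.06), *Rpl4* (-0.01), *Slc2a3* (-0.03) and *Wwtr1* (-0.08). Over the fits that left out 1 library each, *Ccnb1* ranged from -0.01 to 0.62, *Cdk1* from -0.00 to 0.31, *Dab2* from -0.09 to 0.18, *Ddx3y* from -0.30 to 0.95, *Dusp4* from -0.00 to 0.23, *Gabpb1* from -0.27 to 0.28, *Id1* from -0.10 to 0.47, *Klf5* from -0.03 to 0.20, *Rpl3* from -0.06 to 0.15, *Rpl4* from -0.05 to 0.19, *Slc2a1* from -0.10 to 1.03, *Slc2a3* from -0.18 to 0.20, *Spry2* from -0.06 to 0.47, *Tbx3* from -0.38 to 0.18, *Wwtr1* from -0.19 to 0.12 and *Zfp42* from -0.27 to 0.01.

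The replicate numbers did not pair the libraries: the deviations of replicate 1 from its stage mean correlated at -0.06 across 8307 genes. With the replicate number as a block 2908 genes were higher and 2963 lower, of which 2802 and 2934 were shared with the reported calls, and *Acvr1b* (-0.98) and *Smad3* were no longer called.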
